A study of Mus musculus with 12 samples.

Results

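The 39 genes described here encode receptors for neuropeptides and closely related peptide signals in the mouse brain, together with Mrap2, an accessory protein of melanocortin receptors. They were taken by gene symbol from a table of 55385 genes, and all 39 symbols were found. The samples are labelled as brain, and the methods of the study describe the tissue as whole brain, of male wild-type C57BL/6J mice bought at 8 weeks of age. There were 3 mice in each of 4 groups and 1 poly(A) RNA library per mouse. C_W mice were unstressed and were given water into the stomach. C_O mice were unstressed and were given krill oil, a marine oil rich in omega-3 phospholipids, at 200 mg per kg per day. MS_W mice went through 4 weeks of chronic unpredictable mild stress (CUMS), a schedule of changing mild stressors used to model depression, and were given water. MS_O mice went through the same 4 weeks of CUMS and were given krill oil at 200 mg per kg per day. Dose, weeks of CUMS and age come from the methods of the study, which leave the length of the krill oil treatment unclear. Libraries carry the name of their group followed by the number of the mouse (MS_W31 is mouse 31 of MS_W). Expression is given as FPKM, a fragment count divided by transcript length and by the mapped fragments of the library, so that levels of genes of different length can be set side by side.

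Most of these receptors sit in the cell membrane and couple to G proteins, and a peptide released from neurons acts on them over seconds to hours, often at a distance from the synapse. Many come in subtypes that share a ligand but differ in where they are expressed, and a number of them are known from small nuclei of the hypothalamus, amygdala and brainstem rather than from the brain at large. Members of the group take part in feeding, arousal, social behaviour and the hormonal response to stress. Npr3, a clearance receptor for natriuretic peptides, and Mrap2 are not G protein-coupled receptors.

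Promoter sequences are shown for 4 of the 6 members that passed an adjusted p of 0.05 between C_W and MS_W in the 10 libraries described below, because these genes were high in the same group of mice. The windows run from 250 bases before to 50 bases after the annotated start, 5′ to 3′ on the gene's strand, in the RefSeq annotation of GRCm38.p6. They are chr3:134828757-134829056 on the plus strand for Tacr3, chr19:60468255-60468554 on the minus strand for Prlhr, chr2:172248242-172248541 on the plus strand for Mc3r and chr9:87144056-87144355 on the plus strand for Mrap2. Capitals mark the letters TGACG (the core of the cAMP response element), TATAAA (the TATA box) and CCAAT, each read on either strand.
Tacr3: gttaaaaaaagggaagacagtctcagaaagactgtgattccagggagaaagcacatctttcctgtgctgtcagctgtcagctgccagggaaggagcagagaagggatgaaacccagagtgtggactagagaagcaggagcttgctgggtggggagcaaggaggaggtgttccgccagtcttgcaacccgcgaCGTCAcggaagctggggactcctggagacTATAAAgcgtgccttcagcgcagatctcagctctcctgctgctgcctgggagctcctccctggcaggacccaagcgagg
Prlhr: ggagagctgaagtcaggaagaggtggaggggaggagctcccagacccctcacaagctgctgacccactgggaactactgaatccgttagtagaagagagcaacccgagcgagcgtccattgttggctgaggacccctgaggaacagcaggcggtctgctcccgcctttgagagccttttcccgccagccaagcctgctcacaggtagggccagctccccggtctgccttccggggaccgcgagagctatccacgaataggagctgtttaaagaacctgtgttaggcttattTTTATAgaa
Mc3r: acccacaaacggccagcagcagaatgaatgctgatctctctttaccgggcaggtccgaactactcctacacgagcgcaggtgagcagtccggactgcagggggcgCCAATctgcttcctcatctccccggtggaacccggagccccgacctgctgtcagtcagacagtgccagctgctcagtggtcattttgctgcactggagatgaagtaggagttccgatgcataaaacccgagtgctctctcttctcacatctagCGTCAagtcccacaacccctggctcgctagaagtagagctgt
Mrap2: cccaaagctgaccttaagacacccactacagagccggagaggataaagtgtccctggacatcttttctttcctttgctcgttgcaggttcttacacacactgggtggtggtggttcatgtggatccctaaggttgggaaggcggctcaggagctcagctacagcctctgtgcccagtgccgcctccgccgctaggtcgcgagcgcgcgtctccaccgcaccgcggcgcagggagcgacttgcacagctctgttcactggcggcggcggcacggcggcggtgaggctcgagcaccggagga

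The letters TGACG stood in the windows of Tacr3 and Mc3r, TATAAA in those of Tacr3 and Prlhr, and CCAAT in that of Mc3r, while the Mrap2 window held none of the 3 and was rich in CpG with 24 of these pairs. The Prlhr match to TATAAA was on the opposite strand, near the 3′ end of the window. It lay past the annotated start and not before it, so it is a match of letters only. A window was found for 33 of the 39 members. TGACG stood in the windows of 12 of those 33 members (36.4%) and of 23.0% of 27025 genes with a window. The full element TGACGTCA, which contains TGACG, stood in those of 1 member (3.03%) and 2.03% of genes. TATAAA stood in those of 3 members (9.09%) and 15.7% of genes, and CCAAT in those of 15 members (45.5%) and 41.1% of genes. These are matches of letters in a fixed window, and they say nothing of whether a factor bound there.

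The libraries held between 50912906 and 75678721 estimated counts (median 59331216). The libraries C_O72 and MS_W95 were unlike the remaining 10. Their log2(FPKM + 1) values correlated with each other across genes (Pearson's r of 0.97) more than either did with any other library (at most 0.937), while the other 10 correlated at 0.959 or more. The summed FPKM of 10 markers of hindbrain and spinal cord was 82.4 in C_O72 and 60.5 in MS_W95 and at most 0.443 in the others, with 6 to 8 of the 10 at the floor of the table (0.0001, counted as 0 in these sums) in each of those. The sum of 8 cerebellar markers was 316 and 1090 against 30.9 to 47.3, and that of 8 cortical markers was 44.1 and 61.1 against 151 or more. The label of these samples is brain, so markers of the hindbrain were close to absent from 10 of the 12. Values are also given for the 10 libraries that remain once both are set aside, called the 10 libraries. In bulk tissue, fewer cells of a type and less RNA per cell cannot be told apart.

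**Figure D1:**
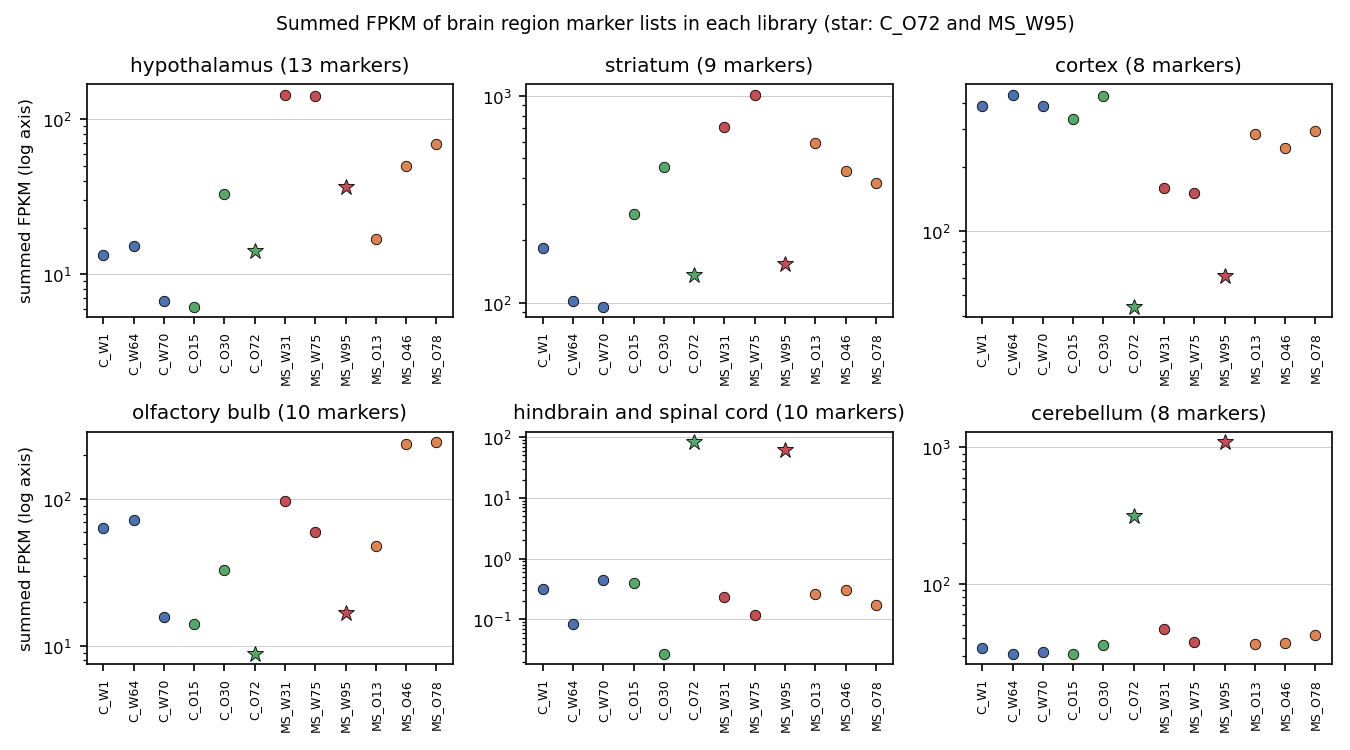
Summed FPKM (log axis) of the marker genes of 6 brain regions in each of the 12 libraries, coloured by group, with C_O72 and MS_W95 as stars. Hindbrain markers reached 82.4 and 60.5 in the starred libraries and at most 0.443 elsewhere, and hypothalamic markers were highest in MS_W31 and MS_W75 (143 and 142).

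The mean level of the receptor genes ran from 32.7 FPKM for Adcyap1r1 to 0.0661 for Brs3. Averaged over the 12 libraries, 3 members lay at 10 FPKM or more, 17 between 1 and 10, 16 between 0.1 and 1, and 3 below 0.1. Of the 36 members with a mean of at least 0.1, which were tested, 55.6% reached 1 FPKM, against 63.7% of the 21393 tested genes. The 38 pairs of neighbours in this order all overlapped in their ranges over the 12 libraries. The members varied more between libraries than genes at large did. Over the 33 members never listed at the floor of 0.0001, the highest library exceeded the lowest by a median of 7.34-fold, against 2.41-fold over 18806 tested genes.

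**Figure D2:**
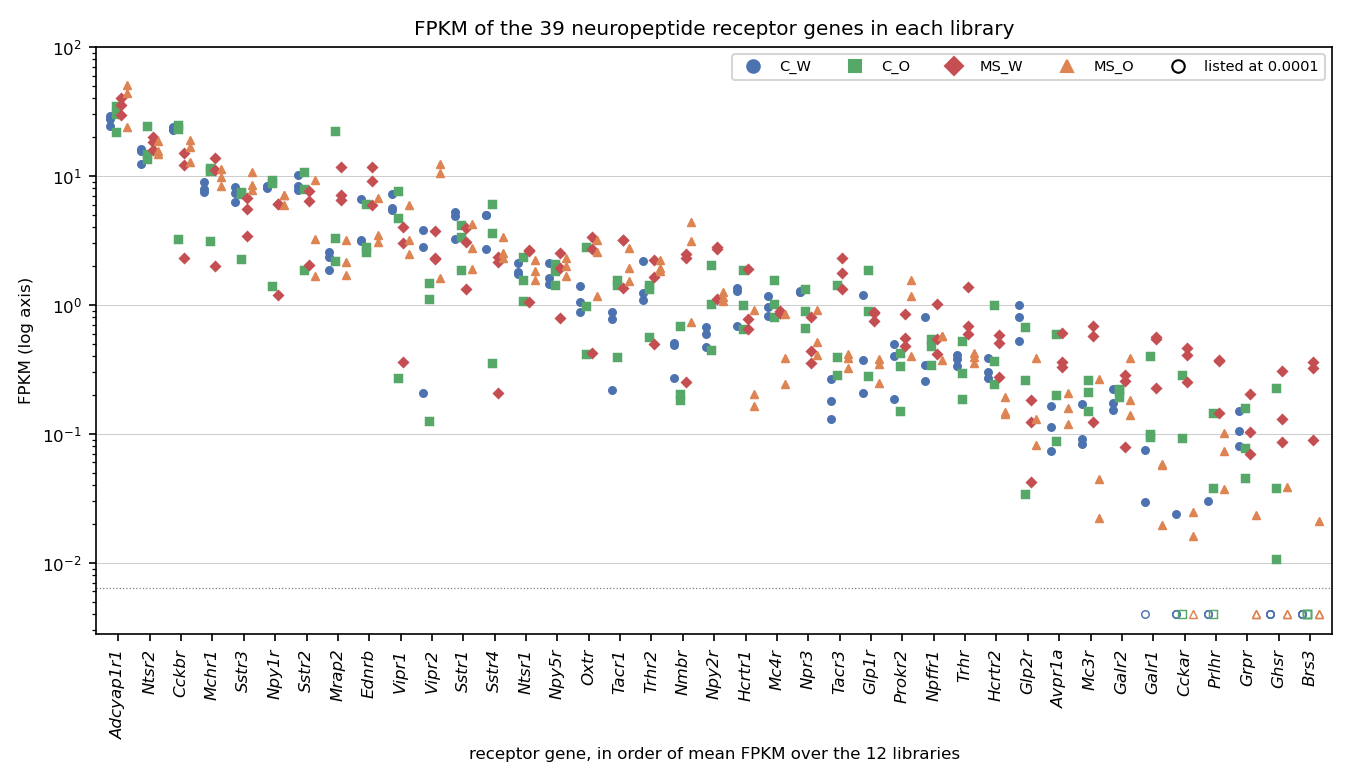
FPKM (log axis) of the 39 receptor genes in each library, ordered by mean level, with 1 symbol per library coloured by group and open symbols for values listed at 0.0001. Adcyap1r1 leads at a mean of 32.7, the ranges of neighbouring genes overlap, and 6 members at the low end hold open symbols.

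The most abundant member was Adcyap1r1, the receptor for the peptide PACAP, which acts in stress and neuroprotection. Its FPKM was 27.8, 29.0 and 24.4 in C_W, 21.9, 30.4 and 34.9 in C_O, 40.5, 35.2 and 29.5 in MS_W, and 23.8, 51.1 and 44.0 in MS_O. All 3 MS_W values lay above the 3 C_W values by a narrow margin, the MS_O values ran from near the bottom to the top of all 12 libraries, and the difference between MS_W and C_W was 0.35 ± 0.262 (SE) on the log2(FPKM + 1) scale (limma, adjusted p = 0.628). Ntsr2, a neurotensin receptor known from astrocytes, was the steadiest of the abundant members, at 12.3 to 24.5 FPKM. Its highest values were in C_O72 (24.5) and MS_W95 (20.1), where the summed FPKM of 7 astrocyte markers was also highest, at 919 and 888 against 413 to 505 elsewhere. Most of that sum was Aldoc, at 649 and 603 against 198 to 260. Of the 7 markers, 4 were higher in both libraries than in every other library, and Slc1a2 was lower, at 67.5 and 60.1 against 86.7 or more. Whether the markers had a part in the Ntsr2 values was not tested.

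Cckbr, the main cholecystokinin receptor of the forebrain, was 24.0, 22.7 and 23.1 FPKM in C_W, 24.8, 23.2 and 3.22 in C_O, 15.0, 12.2 and 2.33 in MS_W, and 19.1, 12.9 and 16.9 in MS_O. The C_O72 and MS_W95 values were the lowest, and every MS_W library still lay below every C_W library when MS_W95 was set aside. In all libraries the difference between MS_W and C_W was -1.44 ± 0.702 (adjusted p = 0.497), and in the 10 libraries it was -0.73 ± 0.15 (adjusted p = 0.0682). Mchr1, a receptor for melanin-concentrating hormone, was likewise lowest in those libraries, at 3.12 FPKM in C_O72 and 1.99 in MS_W95, and lay between 7.55 and 13.7 in the other libraries.

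Low values in C_O72 and MS_W95 were common among the members. These 2 libraries were the lowest 2 of the 12 for 11 of the 36 tested members (30.6%), against 11.7% of all tested genes, a count made after the libraries were seen to stand apart. The 11 were Sstr1, Sstr3 and Sstr4 (somatostatin receptors), Npy1r and Npy5r (neuropeptide Y receptors), Vipr1, Cckbr, Mchr1, Oxtr, Trhr2 and Glp2r. Vipr1, a receptor shared by VIP and PACAP, was 0.27 FPKM in C_O72 and 0.359 in MS_W95 and at least 2.47 in the others. Sstr4 was 0.356 and 0.206 in those libraries and at least 2.15 in the others. Cortical markers were lower in both of these libraries than in every other library for 7 of 8 genes, and their part in the receptor values was not tested. Of the same 8 genes, 7 were also lower in all MS_W mice than in all C_W mice.

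The comparison of MS_W with C_W asks what CUMS alone went with. No member passed an adjusted p of 0.05 (Benjamini-Hochberg over 21393 genes, limma), where 1 gene of all did (0.00467%). At an unadjusted p under 0.05 there were 13 members, 11 higher and 2 lower in MS_W (36.1%, against 10.5% of tested genes). edgeR's quasi-likelihood test on the estimated counts passed no member at the adjusted threshold, DESeq2 passed 3 (Tacr3, Galr1 and Npy2r), where 1.82% of genes passed, and limma on the libraries of C_W and MS_W alone passed Tacr3, where 0.566% did. The DEG criteria used by the study, an unadjusted p under 0.05 and a ratio of group mean FPKM above 2 or below 0.5, were met by those same 13 of 36 members, against 4.59% of the tested genes. Of the members 30.6% met them as higher in MS_W, against 2.5% of genes, and 2 met them as lower, where 2.1% of genes did. Those higher were Npy2r, Galr1, Mc3r, Mrap2, Avpr1a, Tacr1, Tacr3, Trhr, Cckar, Prlhr and Ednrb, and those lower were Glp2r and Npr3. The values of 17 members did not overlap between the groups (10 higher and 7 lower), or 47.2% against 24.6% of genes (16.3% higher and 8.22% lower). The median difference was 0.22 over the members and 0.06 over all genes.

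In the 10 libraries, with 2 MS_W mice, 6 members passed the adjusted threshold, all as higher in MS_W, where 1.15% of genes passed. They were Galr1 (adjusted p = 0.00264), Cckar (0.00637), Tacr3 (0.00655), Prlhr (0.0082), Mrap2 (0.0315) and Mc3r (0.0461), by limma. The DEG criteria were met by 14 members in these libraries, against 5.81% of genes, with Nmbr and Oxtr added and Ednrb lost, and 23 members did not overlap, against 38.8% of genes. Galr1, Cckar and Prlhr reached the minimum for testing only through MS_W, with means of 0.0925, 0.0492 and 0.0474 FPKM over the 9 other libraries, so that their place among the tested members is not independent of a difference from MS_W, here and in the other comparisons with MS_W and the interaction. Without genes that reach the minimum only through 1 group, the DEG criteria were met in MS_W against C_W by 10 of 33 members over all libraries, against 4.28% of 20493 genes, and Tacr3, Mrap2 and Mc3r are the calls at the adjusted threshold in the 10 libraries that do not rest on such a gene.

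**Figure D3:**
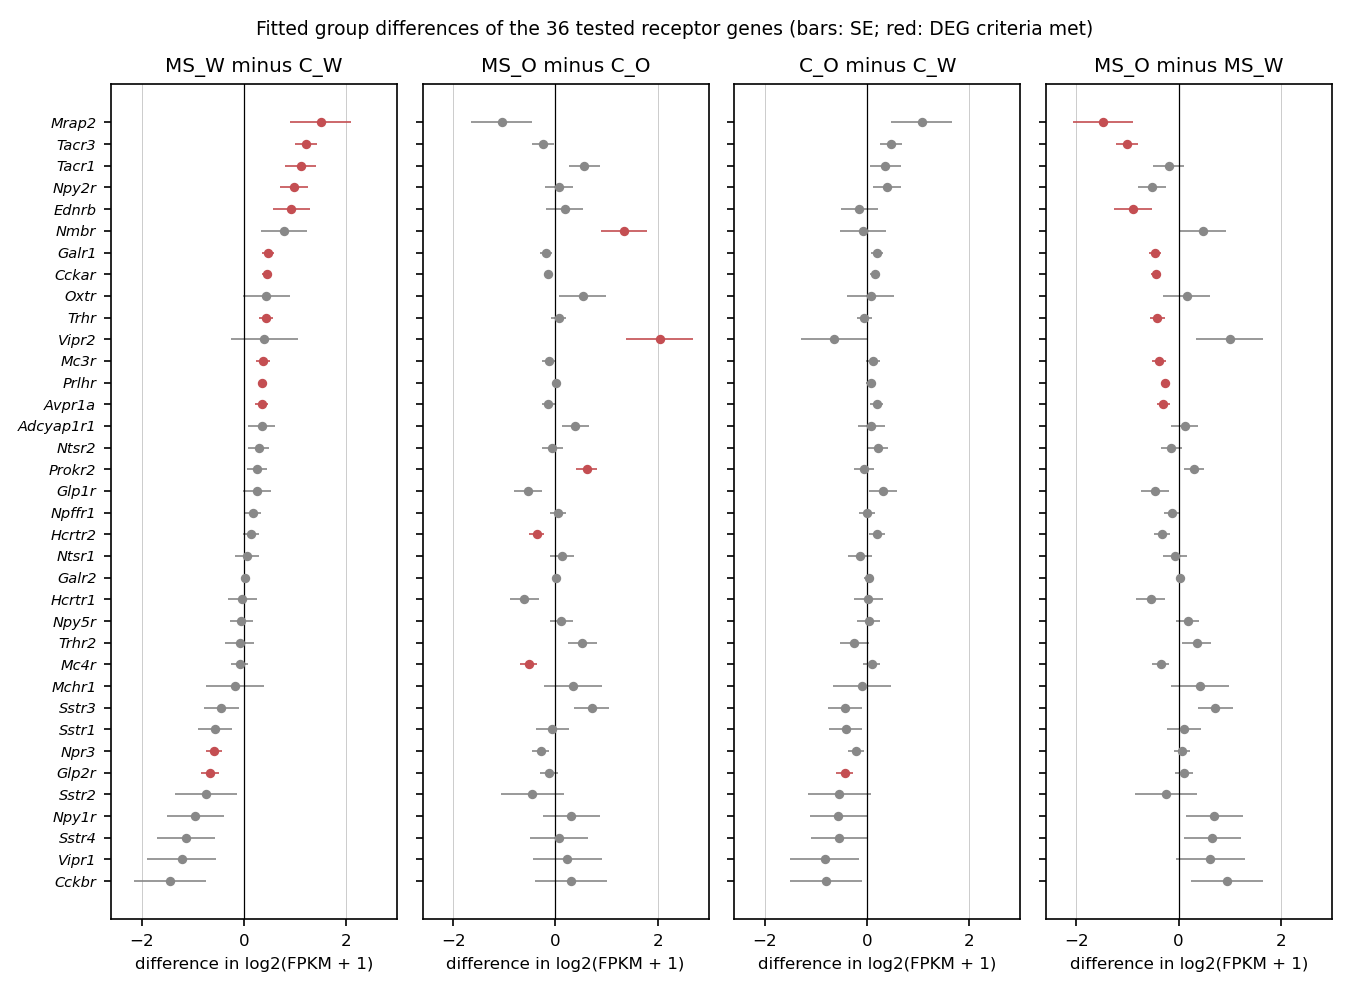
Difference in log2(FPKM + 1) between groups (x axis, point with SE bar) for the 36 tested receptor genes in 4 comparisons, in the order of the difference between MS_W and C_W, with genes meeting the DEG criteria in red. Red points number 11 to the right and 2 to the left in the first panel, and 9 to the left in the last.

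The lowest p of the group was that of a tachykinin receptor, Tacr3 (unadjusted p = 0.000172 between MS_W and C_W, limma). Tacr3, the receptor for neurokinin B, which is known from hypothalamic control of reproduction, was 0.265, 0.130 and 0.181 FPKM in C_W, 0.286, 0.392 and 1.43 in C_O, 1.34, 2.30 and 1.76 in MS_W, and 0.389, 0.325 and 0.415 in MS_O. The 3 MS_W mice and C_O72 were high and the other 8 libraries low, with no overlap between MS_W and C_W or between MS_W and MS_O. The mean was 9.36-fold higher in MS_W than in C_W, the difference was 1.22 ± 0.214 (adjusted p = 0.125 by limma), and it was 1.22 ± 0.136 (adjusted p = 0.00655) in the 10 libraries. Tacr1, the substance P receptor, was 0.876, 0.782 and 0.219 in C_W, 0.393, 1.57 and 1.42 in C_O, 3.20, 3.17 and 1.36 in MS_W, and 1.53, 2.76 and 1.93 in MS_O. MS_W lay wholly above C_W (4.12-fold, difference of 1.11 ± 0.303, adjusted p = 0.285), but unlike Tacr3 the MS_O mice were as high as the lowest MS_W mouse or higher. The difference between MS_O and MS_W was -0.19 ± 0.303 for Tacr1 and -1.01 ± 0.214 for Tacr3, 2 estimates that were not tested against each other.

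Receptors for galanin, cholecystokinin and prolactin-releasing peptide also had their highest group mean in MS_W and their lowest in C_W, at lower levels than Tacr3. Galr1, an inhibitory galanin receptor, was 0.0294, 0.0001 and 0.0743 FPKM in C_W, 0.0949, 0.0998 and 0.399 in C_O, 0.560, 0.546 and 0.228 in MS_W, and 0.0581, 0.0578 and 0.0195 in MS_O. MS_W lay above both C_W and MS_O without overlap, and the C_O mice lay above C_W and MS_O, with C_O72 above MS_W95. Galr2, which shares the ligand but couples to other G proteins, stayed between 0.079 and 0.384 FPKM with overlap in every comparison. Cckar, the cholecystokinin receptor known from satiety, was at the floor of 0.0001 in 2 of 3 C_W mice (0.0241 in C_W70), at 0.0001, 0.0926 and 0.285 in C_O, at 0.409, 0.467 and 0.254 in MS_W and at 0.0248, 0.0160 and 0.0001 in MS_O. Each MS_W value exceeded all values of C_W and MS_O, and C_O72 exceeded MS_W95. Prlhr, the receptor for prolactin-releasing peptide, was at 0.0001 in 2 C_W mice and 0.0303 in C_W64, at 0.0001, 0.0379 and 0.145 in C_O, at 0.372, 0.367 and 0.144 in MS_W, and at 0.101, 0.0374 and 0.0739 in MS_O. MS_W31 and MS_W75 stood above all other libraries and MS_W95 was level with C_O72. For Cckbr the order was the opposite, with MS_W below C_W.

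Npy2r, the presynaptic receptor for neuropeptide Y and PYY, was 0.597, 0.469 and 0.674 FPKM in C_W, 0.449, 2.03 and 1.02 in C_O, 2.72, 2.81 and 1.12 in MS_W, and 1.16, 1.27 and 1.08 in MS_O. MS_W31, MS_W75 and C_O30 were the high libraries, and the MS_W mean was 3.82-fold that of C_W (difference of 0.98 ± 0.271, adjusted p = 0.291). Npy1r, which mediates much of the feeding response to the same peptide, was 8.37, 8.10 and 8.17 in C_W, 9.30, 8.84 and 1.41 in C_O, 6.02, 6.01 and 1.20 in MS_W, and 7.15, 7.16 and 5.96 in MS_O. MS_W lay below C_W without overlap, at -0.95 ± 0.557 (adjusted p = 0.559) and, in the 10 libraries, at -0.39 ± 0.0888 (adjusted p = 0.0909). Npy5r lay between 0.787 and 2.52 FPKM and overlapped between MS_W and C_W.

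Among melanocortin signalling genes, Mc3r was 0.0835, 0.0907 and 0.170 FPKM in C_W, 0.262, 0.211 and 0.150 in C_O, 0.574, 0.683 and 0.124 in MS_W, and 0.267, 0.0448 and 0.0222 in MS_O. MS_W31 and MS_W75 were the highest of all libraries, and MS_W95 fell within the C_W values. Mc4r, the receptor whose loss causes obesity, was 0.815, 1.17 and 0.963 in C_W, 1.01, 0.803 and 1.57 in C_O, 0.859, 0.862 and 0.889 in MS_W, and 0.844, 0.388 and 0.244 in MS_O. It did not differ beyond its spread between MS_W and C_W (-0.08 ± 0.165), and its 2 lowest values were in MS_O46 and MS_O78. Mrap2 was 1.88, 2.58 and 2.34 in C_W, 2.18, 3.28 and 22.4 in C_O, 7.14, 6.49 and 11.7 in MS_W, and 3.21, 1.72 and 2.14 in MS_O. C_O72 held the highest Mrap2 value and MS_W95 the next, but MS_W31 and MS_W75 also exceeded every C_W and MS_O library, and the difference between MS_W and C_W was 1.5 ± 0.595 (adjusted p = 0.432) over all libraries and 1.26 ± 0.205 without those 2.

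Avpr1a, a vasopressin receptor of the brain, was 0.0740, 0.164 and 0.113 FPKM in C_W, 0.0886, 0.201 and 0.591 in C_O, 0.605, 0.362 and 0.331 in MS_W, and 0.119, 0.159 and 0.207 in MS_O. MS_W lay above C_W and MS_O without overlap, and C_O72 was close to MS_W31 (difference between MS_W and C_W of 0.35 ± 0.129, adjusted p = 0.391). Oxtr, the oxytocin receptor, was 1.39, 1.05 and 0.884 in C_W, 0.985, 2.83 and 0.416 in C_O, 3.39, 2.70 and 0.422 in MS_W, and 1.18, 3.17 and 2.57 in MS_O. It was lowest in C_O72 and MS_W95 and highest in MS_W31 and MS_O46, and its groups overlapped in all comparisons (0.44 ± 0.456 between MS_W and C_W, and 0.94 ± 0.328 in the 10 libraries, adjusted p = 0.232). Trhr, a receptor for thyrotropin-releasing hormone, was 0.408, 0.336 and 0.382 in C_W, 0.187, 0.299 and 0.521 in C_O, 1.37, 0.690 and 0.591 in MS_W, and 0.420, 0.355 and 0.392 in MS_O. All MS_W mice were above all others, with MS_W31 far above, and the mean was 2.35-fold that of C_W. Trhr2, another receptor for that hormone, overlapped between these groups, at 0.496 to 2.24 FPKM.

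Glp2r and Npr3 were the members that met the criteria as lower in MS_W. Glp2r, the receptor for glucagon-like peptide 2, was 0.805, 0.521 and 1.00 FPKM in C_W, 0.677, 0.262 and 0.0339 in C_O, 0.183, 0.123 and 0.0425 in MS_W, and 0.389, 0.0826 and 0.130 in MS_O. C_W lay above MS_W and MS_O throughout, and the mean of MS_W was 0.15 times that of C_W (difference of -0.66 ± 0.173, adjusted p = 0.278; -0.61 ± 0.165 in the 10 libraries). Npr3 was 1.25, 1.29 and 1.27 in C_W, 1.34, 0.665 and 0.896 in C_O, 0.800, 0.355 and 0.442 in MS_W, and 0.913, 0.515 and 0.407 in MS_O. The C_W mice were tightly grouped above every stressed mouse, and the mean of MS_W was 0.419 times that of C_W (-0.58 ± 0.16, adjusted p = 0.291). Both genes overlap an exon of another gene on the opposite strand, Gas7 for Glp2r and Gm5144 for Npr3, and the strand setting of the counting is not given in the sources used here. Ednrb, the endothelin B receptor of astrocytes and vessels, was 6.6, 3.13 and 3.16 in C_W and 5.92, 9.12 and 11.8 in MS_W, with overlap and its highest value in MS_W95.

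**Figure D4:**
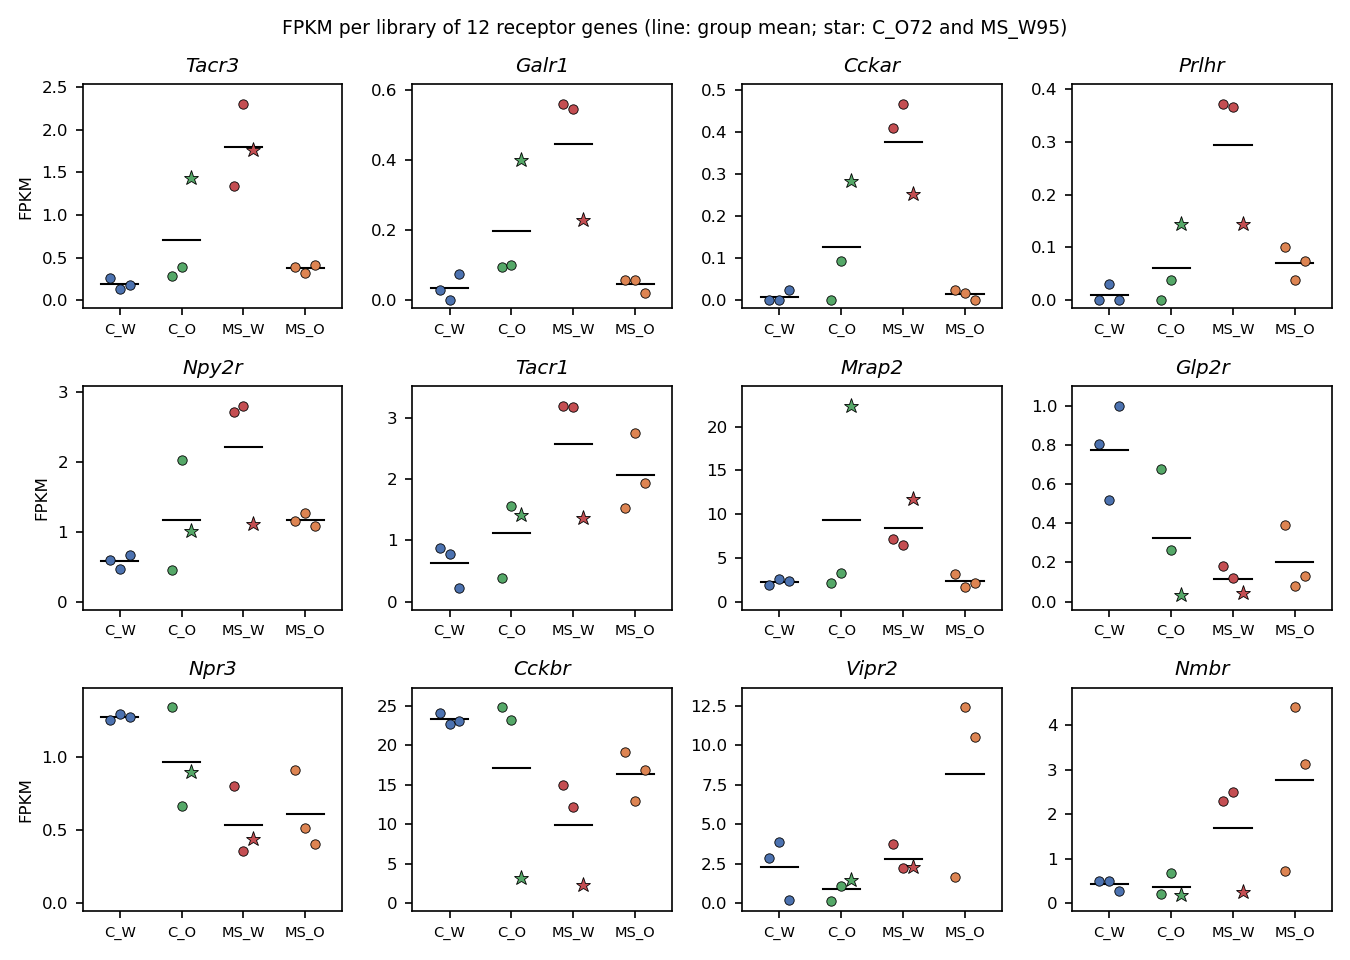
FPKM (linear axis) of 12 receptor genes in each library by group, with the group mean as a line and C_O72 and MS_W95 as stars. Tacr3, Galr1, Cckar and Prlhr are high in all or most MS_W mice and low in MS_O. Glp2r and Npr3 have their highest group mean in C_W, and Vipr2 and Nmbr are highest in 2 of the 3 MS_O mice.

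The comparison of MS_O with MS_W asks what krill oil went with under CUMS, and it shares the MS_W libraries with the comparison above. No member passed the adjusted threshold by limma or edgeR, where 0.00467% of genes did by limma, and DESeq2 passed Tacr3 (adjusted p = 0.0174), where 0.369% of genes passed. At an unadjusted p under 0.05 there were 9 members, all lower in MS_O (25.0%, against 6.09% of genes). All 9 also met the DEG criteria, against 2.81% of genes and 1.39% of genes as lower, and they were Galr1, Mc3r, Mrap2, Avpr1a, Tacr3, Trhr, Cckar, Prlhr and Ednrb. The values of 11 members did not overlap, 10 lower and 1 higher in MS_O, or 30.6% against 12.3% of genes (7.66% lower and 4.64% higher), with Hcrtr2, Mc4r and Glp1r (the receptor for glucagon-like peptide 1) among the lower and Sstr3 as the higher. Glp1r was 0.373, 0.208 and 1.20 FPKM in C_W, 0.896, 0.281 and 1.86 in C_O, 0.886, 0.871 and 0.754 in MS_W, and 0.382, 0.246 and 0.349 in MS_O. The mean of Tacr3 was 1.80 FPKM in MS_W and 0.376 in MS_O, a ratio of 0.209 (adjusted p = 0.361 by limma), and Trhr had a ratio of 0.44 (-0.42 ± 0.144, adjusted p = 0.79). In the 10 libraries 4 members passed the adjusted threshold as lower in MS_O, where 0.271% of genes passed. They were Galr1 (adjusted p = 0.00485), Cckar (0.0122), Tacr3 (0.0353) and Prlhr (0.0421), by limma. The DEG criteria were met there by 10 members, against 3.36% of genes, and 15 members did not overlap, against 22.3% of genes. Galr1, Cckar and Prlhr were tested only through MS_W, and without such genes the criteria were met over all libraries by 6 of 33 members, against 2.5% of genes.

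Because MS_W takes part in both comparisons, a high value in MS_W alone places a gene in both lists. Of the members lower in MS_O than in MS_W, the group means in FPKM of MS_O and C_W were 2.36 and 2.27 for Mrap2, 0.389 and 0.375 for Trhr, 0.0451 and 0.0346 for Galr1, 0.111 and 0.115 for Mc3r, 0.162 and 0.117 for Avpr1a, 4.44 and 4.30 for Ednrb and 0.0136 and 0.00811 for Cckar, with overlap between the mice of these groups. For Tacr3 they were 0.376 and 0.192 and for Prlhr 0.0708 and 0.0102, and for both genes every MS_O mouse lay above every C_W mouse. MS_W31 and MS_W75 were the highest 2 of the 12 libraries for 8 of the 36 tested members (22.2%), against 3.21% of all tested genes, namely Npy2r, Galr1, Mc3r, Tacr1, Ntsr1, Trhr, Cckar and Prlhr. This count was made after the values were seen. Galr1, Cckar and Prlhr were tested only through MS_W, so their place in it is not independent of high MS_W values.

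Markers of the hypothalamus and striatum were also high in these libraries. The summed FPKM of 13 hypothalamic markers was 6.72 to 15.2 in C_W, 6.2 to 32.8 in C_O, 36.8 to 143 in MS_W and 17.0 to 69.5 in MS_O. It was 143 in MS_W31 and 142 in MS_W75. All MS_W values exceeded all C_W values for 8 of the 13 (and for 2 of 9 striatal markers), and 7 of the 13 were lower in all MS_O mice than in all MS_W mice. Among defining markers, Sim1 was at the floor in every library outside MS_W and 0.141, 0.194 and 0.006 FPKM within it. Nkx2-1 was 1.37 and 1.59 in MS_W31 and MS_W75, at the floor in MS_W95 and at most 0.247 elsewhere. Other markers of the list were highest elsewhere. Otp was 3.24 in C_O72 and 1.07 to 1.56 in MS_W, Hdc was highest in MS_W95 and C_O72 (0.944 and 0.591), Agrp in C_O30 (0.629) and Trh in MS_O78 (53.0). Of the 13 markers, 7 are ligands of the receptors described here and 1 (Calcr) is another peptide receptor. Striatal markers summed to 95.7 to 184 in C_W, 136 to 452 in C_O, 153 to 1010 in MS_W and 378 to 592 in MS_O, with 707 in MS_W31 and 1010 in MS_W75. The part of either marker list in the receptor values was not tested.

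The comparison of MS_O with C_O asks what CUMS went with in mice given krill oil. No member passed the adjusted threshold by limma (0.00467% of genes did) or edgeR, and DESeq2 passed Hcrtr2 (adjusted p = 0.0392), where 0.804% of genes passed. At an unadjusted p under 0.05 there were 5 members, 13.9% against 8.88% of genes. The same 5 met the DEG criteria, against 3.57% of genes, with Vipr2, Nmbr and Prokr2 higher (2.82% of genes were) and Hcrtr2 and Mc4r lower in MS_O (0.753% of genes). The values of 6 members did not overlap (4 higher and 2 lower in MS_O), 16.7% against 12.2% of genes, of which 8.9% were higher and 3.29% lower. In the 10 libraries the criteria were met by 4 members, all higher in MS_O (Vipr2, Nmbr, Prokr2 and Tacr1), against 4.28% of genes, and Hcrtr2 and Mc4r no longer met them. Over all libraries, genes that reach the minimum without any 1 group met them for 5 of 33 members, against 3.34% of genes. In these libraries 12 members did not overlap, against 26.8% of genes.

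Vipr2, the VIP receptor of the circadian clock and of the olfactory bulb, was 2.83, 3.84 and 0.206 FPKM in C_W, 0.126, 1.11 and 1.47 in C_O, 3.74, 2.25 and 2.31 in MS_W, and 1.63, 12.4 and 10.5 in MS_O. MS_O46 and MS_O78 stood above all other libraries, MS_O13 lay just above the C_O mice, and the difference between MS_O and C_O was 2.04 ± 0.655 (9.08-fold, adjusted p = 0.479, limma). Nmbr, the neuromedin B receptor, was 0.489, 0.509 and 0.273 in C_W, 0.204, 0.684 and 0.183 in C_O, 2.29, 2.50 and 0.251 in MS_W, and 0.734, 4.41 and 3.14 in MS_O. MS_O46 and MS_O78 were again highest, followed by MS_W75 and MS_W31 (difference between MS_O and C_O of 1.34 ± 0.449, adjusted p = 0.479). Nmbr overlaps an exon of B230364G03Rik on the opposite strand. Prokr2, the prokineticin receptor needed for olfactory bulb formation, was 1.57 and 1.18 in these 2 mice, 0.402 in MS_O13, and 0.151 to 0.845 in the other groups.

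MS_O46 and MS_O78 were the highest 2 libraries for Vipr2, Nmbr, Prokr2, Adcyap1r1 and Sstr3, which is 5 of 36 members (13.9%) against 7.85% of genes, and this too was counted after the values were seen. The summed FPKM of 10 olfactory bulb markers (11 gene identifiers) was 240 in MS_O46 and 245 in MS_O78, 48.2 in MS_O13, 8.87 to 32.8 in C_O, 15.8 to 72.8 in C_W and 16.8 to 98.2 in MS_W. All 11 were higher in every MS_O mouse than in every C_O mouse. The part of these markers in the receptor values was not tested.

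The orexin receptors promote wakefulness. Hcrtr2 was 0.271, 0.301 and 0.385 FPKM in C_W, 0.365, 0.243 and 0.996 in C_O, 0.508, 0.276 and 0.581 in MS_W, and 0.143, 0.147 and 0.193 in MS_O. The 3 MS_O values were the lowest of the 12 (difference from C_O of -0.37 ± 0.155, adjusted p = 0.548). Hcrtr1 was 0.690, 1.28 and 1.35 in C_W, 0.991, 0.656 and 1.87 in C_O, 0.651, 0.773 and 1.9 in MS_W, and 0.916, 0.165 and 0.202 in MS_O. MS_O46 and MS_O78 were lowest and C_O72 and MS_W95 highest, and the difference between MS_O and C_O was -0.61 ± 0.284 (adjusted p = 0.573).

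The comparison of C_O with C_W asks what krill oil went with in unstressed mice. No member passed the adjusted threshold by limma, edgeR or DESeq2, and no gene of all did by limma (0.0%). At an unadjusted p under 0.05 there was 1 member, Glp2r, where 3.55% of genes passed. It also met the DEG criteria as lower in C_O (2.78% of members, against 1.76% of genes, of which 0.897% as lower, and 1.62% of genes that reach the minimum without any 1 group), with a mean 0.418 times that of C_W (-0.44 ± 0.173, adjusted p = 0.908). Its groups overlapped, and its lowest value was in C_O72. In the 10 libraries no member met the criteria (1.64% of genes did), and 7 did not overlap, against 19.3% of genes. The values of Galr1 and Tacr3 did not overlap, with C_O higher, or 5.56% of members against 9.42% of genes (4.08% as higher).

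The interaction, the CUMS difference on krill oil minus that on water, passed the adjusted threshold for no member and no gene (0.0%) by limma. At an unadjusted p under 0.05 there were 11 members (30.6%, against 7.23% of genes), 9 with a negative and 2 with a positive interaction. The lowest p were those of Tacr3 (-1.46 ± 0.302, adjusted p = 0.382), Cckar (-0.59 ± 0.13, adjusted p = 0.455) and Galr1 (-0.66 ± 0.161, adjusted p = 0.507), by limma. edgeR passed no member, and DESeq2 passed Tacr3 (adjusted p = 0.000119), Galr1 (0.00852) and Mrap2 (0.0186), where 0.706% of genes passed. In the 10 libraries limma passed Galr1 (-0.66 ± 0.0766, adjusted p = 0.023), where 0.145% of genes passed. Galr1, Cckar and Prlhr, all among the 9 with a negative interaction, reached the minimum for testing only through the MS_W mice that enter this term. The counts of members for this term are therefore not independent of high MS_W values.

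**Figure D5:**
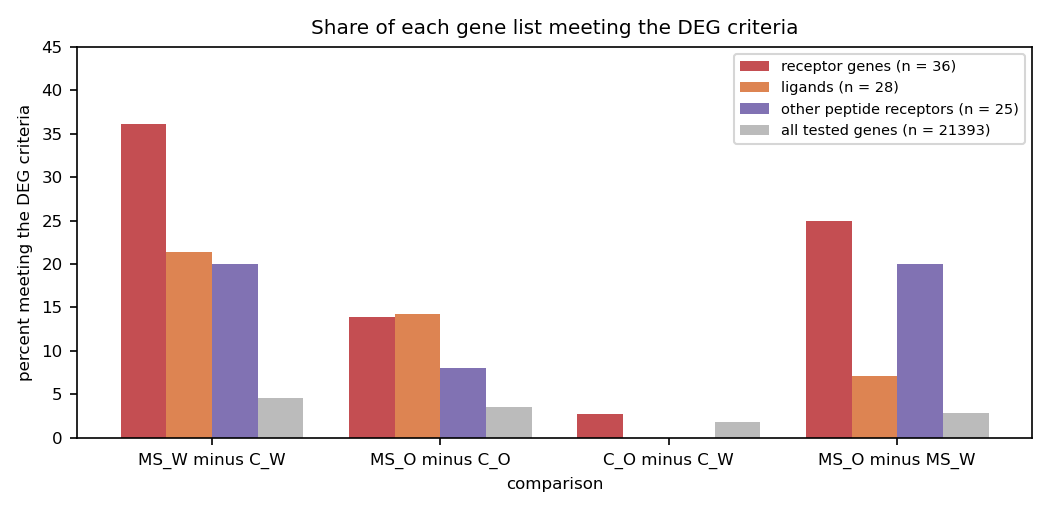
Percent of each gene list meeting the DEG criteria (y axis, from 0) in 4 comparisons, as bars for the 36 receptor genes, 28 ligands, 25 other peptide receptors and all 21393 tested genes. The receptor genes stand at 36.1%, 13.9%, 2.78% and 25.0%, beside 4.59%, 3.57%, 1.76% and 2.81% of all genes.

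Ligand genes were listed for the same receptors, and 28 of 33 were tested. In MS_W against C_W, 6 ligands met the DEG criteria, all higher (21.4%, against 4.59% of genes and 2.5% as higher). They were Oxt, Avp, Nts (neurotensin), Gal (galanin), Tac1 (substance P) and Hcrt (orexin). Oxt was 0.0001, 0.353 and 0.347 FPKM in C_W and 20.2, 32.7 and 0.392 in MS_W (difference of 3.03 ± 1.01, adjusted p = 0.357). The difference came from MS_W31 and MS_W75, since MS_W95 was level with C_W. The same held for Avp, at 0.0001, 0.0001 and 0.435 in C_W and 32.3, 59.3 and 0.185 in MS_W, with overlap. Nts was 0.507, 0.296 and 1.13 in C_W and 15.3, 21.9 and 3.02 in MS_W (2.83 ± 0.742, adjusted p = 0.279). Hcrt was listed at 0.0001 in all C_W mice and was 5.60, 0.858 and 0.144 in MS_W. With means of 0.0293 FPKM in C_O and 0.0366 in MS_O, it reached the minimum for testing only through MS_W. Its calls in the comparisons with MS_W are therefore not independent of a difference from MS_W. In MS_O against C_O, 4 ligands met the criteria as higher (Trh, Nmb, Nppa and Prok2), or 14.3% against 3.57% of genes (2.82% as higher). Trh, the ligand of Trhr, was 0.770, 4.37 and 0.387 in C_O and 8.84, 37.4 and 53.0 in MS_O (3.53 ± 0.913, adjusted p = 0.479). Nmb, the ligand of Nmbr, was 1.1, 5.50 and 2.32 in C_O and 4.69, 28.9 and 33.9 in MS_O, with overlap. In MS_O against MS_W, Hcrt and Oxt met the criteria as lower (7.14%, against 2.81% of genes and 1.39% as lower). No ligand did in C_O against C_W, where 1.76% of genes did.

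Of 40 other peptide receptor genes, 25 were tested, and 5 met the DEG criteria in MS_W against C_W, with Calcr, Crhr2 and Sstr5 higher and Rxfp1 and Mrap lower. Calcr, the calcitonin receptor, was listed at 0.0001 in all C_W mice and was 1.3, 1.29 and 0.836 in MS_W (adjusted p = 0.0606, limma). With means of 0.223 FPKM in C_O and 0.0482 in MS_O, Calcr reached the minimum for testing only through MS_W. Sstr5 was 0.0001, 0.0261 and 0.103 in C_W and 0.480, 0.572 and 0.178 in MS_W, while its relatives Sstr1 to Sstr4 were lower or overlapped there. Sstr2, at 7.78, 8.35 and 10.1 in C_W and 7.64, 6.38 and 2.03 in MS_W, lay below without overlap (-0.74 ± 0.608, adjusted p = 0.653). In MS_O against C_O, Gipr and Npr1 met the criteria as higher (8.0%, against 3.57% of genes and 2.82% as higher). In MS_O against MS_W, Calcr, Sstr5 and Uts2r met them as lower and Gipr and Mrap as higher, and none did in C_O against C_W.

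The 3 members below a mean of 0.1 FPKM were not tested. Brs3, an orphan receptor of the bombesin family known from hypothalamic energy balance, was listed at 0.0001 in all 6 unstressed mice, at 0.359, 0.323 and 0.0900 in MS_W, and at 0.0212 in MS_O46 only among MS_O. Ghsr, the ghrelin receptor, was listed at 0.0001 in all C_W mice, and was 0.0107, 0.0377 and 0.225 in C_O, 0.131, 0.0869 and 0.308 in MS_W, and above the floor in MS_O only at 0.0387 in MS_O46. Grpr, the gastrin-releasing peptide receptor, lay between 0.0454 and 0.204 in C_W, C_O and MS_W and at 0.0001, 0.0235 and 0.0001 in MS_O. Of the remaining members, Sstr1 (1.32 to 5.23 FPKM), Ntsr1 (1.05 to 2.65) and Npffr1 (0.255 to 1.01) overlapped between groups in all 4 comparisons. With 3 mice against 3, an exact permutation test of a single gene cannot give a two-sided p below 0.1.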

How the data were processed

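The members, gene lists, tests and alternatives were chosen with earlier results of these data known, and the members and lists are given no test of their own. The authors deposited FPKM values. Per the submitters' processing notes and methods, they trimmed reads (cutadapt 1.9), aligned them to mm10 with HISAT2 2.0.4, assembled and merged transcripts with StringTie 1.3.4d and estimated expression, listing genes without an estimate at 0.0001. The same deposited table holds an estimated count per gene and library, unscaled by the authors, which was rounded for the count tests. Each sample was 1 mouse, p-values measure the spread between mice, and depth was 50912906 to 75678721 estimated counts per library, so that members below 0.1 FPKM rest on few fragments.

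From the FPKM values, a linear model per gene with a variance trend (limma 3.58.1, R 4.3.3) was fitted to log2(FPKM + 1) in 1 model of the 4 groups, over the 21393 genes with a mean of at least 0.1, with p adjusted by Benjamini and Hochberg. Fitted differences are on this scale and understate the change of low genes. All p-values are two-sided. The DEG criteria of the study (unadjusted p under 0.05, absolute log2 ratio of group mean FPKM over 1) were applied to the same fit. Alternatives were edgeR 4.0.16 (quasi-likelihood, TMM), DESeq2 1.42.0, other filters, pseudocounts and scalings, fits of 2 groups, leaving out each library, and the 10 libraries without C_O72 and MS_W95. The limma fit was tested on simulated data, and the edgeR and DESeq2 fits were not. Named members are those with an unadjusted p under 0.05 and groups that do not overlap, the 4 most abundant, and the other receptors of their families, some of which are given by range only. Other members that are given values (Ednrb, Prokr2, Ghsr, Ntsr1, Sstr1, Sstr2, Sstr3 and Sstr4) were chosen after their values were seen. Marker lists for 18 cell types and regions were summed as FPKM. Those not given elsewhere were the pituitary list (49.0 in C_O72, at most 0.779 elsewhere), choroid plexus (4830 in C_O72, 1810 in MS_W95, 5.28 to 841 elsewhere), meninges (333 to 1640), oligodendrocyte (249 to 1220), neuron (769 to 1090), microglia (53.2 to 102), endothelium (33.9 to 68.5), hippocampus (28.1 to 81.8), thalamus (13.8 to 219), midbrain dopamine (2.29 to 69.0) and immediate early genes (43.0 to 300). Promoter windows came from RefSeq (GRCm38.p6) and gene overlaps from GENCODE vM21, in which 36 of 39 members had the start and end of the table. A planned comparison of receptor protein sequences was not run.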

Additional observations from a re-analysis of the deposited data

Results flagged for a closer look

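The Galr1 differences with CUMS had opposite signs on water and on krill oil. All MS_W mice lay above all C_W mice (difference in log2(FPKM + 1) of 0.47) and all MS_O mice lay below all C_O mice (-0.19). Its krill oil differences were also opposite, at 0.20 in unstressed and -0.46 in stressed mice, without overlap in either. None of the 4 passed the adjusted threshold by limma (adjusted p = 0.266, 0.659, 0.908 and 0.543 in the order given), and those of MS_O against C_O and of C_O against C_W did not pass an unadjusted p of 0.05 either. Galr1 reached the minimum for testing only through MS_W. The interaction term had an adjusted p of 0.507 by limma over all libraries, and an adjusted p of 0.023 in the 10 libraries without C_O72 and MS_W95. C_O72 held 0.399 FPKM, but C_O15 and C_O30, at 0.0949 and 0.0998, also lay above every C_W and MS_O mouse.

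Tacr3 was higher in all C_O mice than in all C_W mice (0.46) and lower in all MS_O mice than in all MS_W mice (-1.01), and neither passed the adjusted threshold (adjusted p = 0.908 and 0.361 by limma). The first did not pass an unadjusted p of 0.05 either. The interaction had an adjusted p of 0.382 by limma and of 0.0955 in the 10 libraries. C_O72 (1.43 FPKM) carried most of the first difference, since C_O15 and C_O30 were at 0.286 and 0.392 against at most 0.265 in C_W.

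Ghsr was above the floor in all C_O mice and in none of the C_W mice (0.12), and it was lower in all MS_O than in all MS_W mice (-0.21). Its level was below the minimum for testing, so this difference between the pairs of groups was not tested. C_O72 and MS_W95 held its 2 highest values, 0.225 and 0.308 FPKM.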

How the results depend on the processing

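Over the 21 differences of named members in a comparison, 468 alternative values were computed, and 448 kept the direction and the side of the adjusted threshold, 20 passed it where the reported fit did not, and none changed sign. As none passed in the reported fit, keeping the side meant not passing. The unadjusted p under 0.05 held in 22 of 22 alternatives for Tacr3, Galr1 and Cckar, each in both its comparisons. It also held in every alternative for Npy2r, Tacr1, Trhr, Glp2r, Prlhr and Npr3 in MS_W against C_W and for Vipr2 in MS_O against C_O. It held least often for Avpr1a in MS_O against MS_W (12 of 22) and Hcrtr2 in MS_O against C_O (15 of 22). Counts of members moved more. No member passed an adjusted p of 0.05 in the reported fit. In the 10 libraries without C_O72 and MS_W95, 6 passed for MS_W against C_W, 4 for MS_O against MS_W and 1 for the interaction. With DESeq2 the counts were 3, 1 and 3, and 1 for MS_O against C_O. A fit of 2 groups only passed 1 for MS_W against C_W. Leaving out each library gave 0 to 3 for MS_W against C_W (3 without C_O72, 1 without MS_W95), 0 to 1 for MS_O against C_O (1 without MS_O13), 0 to 1 for MS_O against MS_W (1 without C_O72), and 0 for the others. The share of all genes was not set beside these leave-out counts.

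The DEG criteria were met by 13 members in MS_W against C_W. With a mean of at least 1 FPKM, where fewer genes are tested, this was 4, and with the fold change taken from log2(FPKM + 1), which is smaller for low genes, it was 3. It was 10 to 16 leaving out each library. For MS_O against C_O, the reported 5 (3 higher, 2 lower) became 2 at 1 FPKM, 2 with that fold change, 9 (3 higher, 6 lower) after centring libraries on their median and 9 (3 higher, 6 lower) with DESeq2, and edgeR gave 3 higher and 4 lower. It was 2 to 7 leaving out each library (3 without C_O72 or MS_O78, 2 without MS_O46). For MS_O against MS_W, the reported 9 became 2 at 1 FPKM and 2 with that fold change, and 5 to 12 leaving out each library (5 without MS_O78). For C_O against C_W, the reported 1 became 0 at 1 FPKM, in the 10 libraries, in a fit of 2 groups only and with that fold change, 2 with a pseudocount of 0.1 or 0.01 or median centring, 4 with edgeR and 6 with DESeq2. It was 0 to 6 leaving out each library (0 without C_W1, C_W70 or C_O72, 2 without C_O30, 6 without C_O15). Members without overlap between groups numbered 12 in MS_O against C_O and 7 in C_O against C_W in the 10 libraries. Fewer libraries make overlap less likely, and leaving out each library gave 17 to 23, 7 to 14 (12 without C_O30 or C_O72, 14 without MS_O13), 3 to 12 (4 without C_W1 or C_O30, 5 without C_W70, 7 without C_O72, 12 without C_O15) and 12 to 17 (17 without MS_O13) in MS_W against C_W, MS_O against C_O, C_O against C_W and MS_O against MS_W. Over all genes, the share without overlap in MS_W against C_W was 24.6% in all libraries and 38.8% in the 10 libraries. Apart from the 10 libraries, the counts in this paragraph stand without the share of all genes in the same setting. They do not show whether the moves are particular to the receptors. Other causes of these moves were not tested. An alternative chosen after seeing the data left out genes that reach the minimum only through 1 group, and 10, 5, 1 and 6 of 33 members met the DEG criteria in MS_W against C_W, MS_O against C_O, C_O against C_W and MS_O against MS_W. No scaling moved the median of all genes by over 0.1 on the log2 scale.

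No paired analysis was possible because the groups share no mouse numbers. With 3 mice per group and many members below 1 FPKM, small differences in low genes were not detectable.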
